A study of Homo sapiens with 60 samples.

Results

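Collagens and extracellular matrix genes were followed in a human osteosarcoma cell line whose integrated stress response was switched on by a drug. The 39 genes were chosen by name, not by their values: 30 structural genes, 7 genes for enzymes and a chaperone that process collagen, and 2 protease inhibitor genes. All 39 of the 57665 genes deposited carried a listed symbol and a mean raw count of at least 5. COL1A2 did not pass the low-count filter of the test, so 38 members were tested among 18040 genes.

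Collagens are triple helices of alpha chains. The chains are hydroxylated on proline and lysine in the endoplasmic reticulum, held by the chaperone encoded by SERPINH1, secreted, and cross-linked outside the cell by lysyl oxidases. Fibrillar collagens form the cables of bone and connective tissue, while collagen IV, laminins, nidogens and perlecan build the sheet of the basement membrane. The integrated stress response is the pathway in which a stress kinase such as PERK phosphorylates the translation factor eIF2α, which lowers protein synthesis and raises translation of the transcription factor ATF4. An osteosarcoma line keeps part of a bone-forming cell's matrix expression.

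The libraries were bulk RNA-seq from U2OS Dmr-PERK cells, a U2OS line that stably carries the eIF2α kinase domain of mouse PERK joined to a DmrB dimerization domain; its genotype label is WT, and whether it is 1 clone is not stated. AP20187, the dimerizer, brings the fusion proteins together and so turns the kinase on without an outside stress. The treated groups received dimerizer at 0.01, 0.2 or 3 nM (0.2 nM stands for the labelled middle dose, which equals 195 pM). Cells were taken at 6 times, 1, 2, 4, 8, 16 and 24 h, with 3 libraries in each of the 18 groups. The reference libraries were 2 untreated sets of 3, both of the same cell line and both labelled 0 h. The labels tie neither set to a dose. There was no untreated library at each time, so the drug and the time in culture cannot be told apart in any comparison with untreated cells. Replicates are not said to come from separate cultures, so a p-value here measures only how far these libraries scatter, and that scatter may be technical.

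Depth split the series: the 3 nM libraries and untreated set 2 held 20713699 to 28436165 counts, and the 0.01 nM and 0.2 nM libraries and untreated set 1 held 5598612 to 10367375. The members differed between the untreated sets as well. Against set 1, set 2 was higher for 4 members and lower for 24 of 38, where 14.9% of all genes tested were called higher and 14.0% lower. The 37 mitochondrially encoded genes took 5.49 ± 0.0729% of counts in set 2 and 10.5 ± 0.694% in set 1 (SD, n = 3 each). Treated groups ran from 4.18% (3 nM 24 h) to 6.58% (0.01 nM 1 h). In this share set 1 therefore stood apart from the 0.01 nM and 0.2 nM groups of like depth as well. Each treated group was therefore compared with the mean of both sets, and for single genes the value against the set of like depth (set 2 for 3 nM, set 1 for the other doses) is given where it differs by over 1.5 times or changes the call. The part of these differences between sets in the results was not tested. At 24 h, 8 of 8 known genes of the response were called higher at 3 nM (median log2 fold change 2.68), 8 of 8 at 0.2 nM (2.38) and 7 of 8 at 0.01 nM (0.90). The remaining gene was called lower at 0.01 nM. Of 12 bone lineage and mesenchymal markers, 10 had a median of at least 1 TPM (the authors' length-scaled transcript values), while SP7 and IBSP had a median of 0. Of 7 endothelial markers 1 reached that level. Markers of epithelium reached it for 6 of 9 genes.

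In untreated cells the members spanned a wide range of levels per transcript length. SPARC, a collagen-binding glycoprotein of bone, averaged 1820 TPM over the 6 untreated libraries, and TIMP1, an inhibitor of matrix metalloproteinases, averaged 1360 TPM. COL1A1, the alpha 1 chain of type I collagen, averaged 429 TPM, ahead of FN1 at 330 TPM, THBS1 at 325 TPM and SERPINH1 at 272 TPM. The FN1 libraries ran from 273 to 429 TPM and the THBS1 libraries from 303 to 361 TPM, so these neighbours overlapped. At the low end stood COL3A1 with 3.22 TPM, LAMA4 with 0.804, THBS2 with 0.461 and COL1A2 with 0.267 TPM. COL1A2 encodes the partner chain of COL1A1 in type I collagen. Its rounded counts were 1, 1 and 6 in the 3 nM 24 h libraries, 14, 20 and 16 in untreated set 2 and 5, 7 and 4 in untreated set 1, too few for the test.

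Promoter windows of 4 members are shown because these genes carry the contrasts described next: TNC rose most, THBS1 was called higher early and lower late, PLOD2 was the processing gene that rose at 3 nM, and COL4A1 shares its promoter region with COL4A2. RefSeq windows (build GRCh38.p14, from 250 bases before to 50 after each start) were matched for 32 of 39 members. Capitals mark the CCAAT box, the TEAD site GGAATG and the hypoxia response core ACGTG on either strand, so ATTGG and CACGT are reverse-strand matches.
TNC, chr9:115118108-115118407, minus strand: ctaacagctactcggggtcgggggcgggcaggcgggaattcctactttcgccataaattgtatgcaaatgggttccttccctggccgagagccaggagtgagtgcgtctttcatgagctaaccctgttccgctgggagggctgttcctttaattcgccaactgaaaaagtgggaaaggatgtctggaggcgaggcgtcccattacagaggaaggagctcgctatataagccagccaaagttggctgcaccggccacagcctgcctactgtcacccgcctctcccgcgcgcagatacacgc
THBS1, chr15:39580829-39581128, plus strand: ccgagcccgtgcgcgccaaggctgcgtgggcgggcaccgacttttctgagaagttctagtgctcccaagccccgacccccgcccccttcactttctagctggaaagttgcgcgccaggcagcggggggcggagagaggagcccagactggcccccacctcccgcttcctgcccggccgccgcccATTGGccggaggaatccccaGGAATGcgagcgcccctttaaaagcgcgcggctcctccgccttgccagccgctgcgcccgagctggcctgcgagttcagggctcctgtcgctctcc
PLOD2, chr3:146161135-146161434, minus strand: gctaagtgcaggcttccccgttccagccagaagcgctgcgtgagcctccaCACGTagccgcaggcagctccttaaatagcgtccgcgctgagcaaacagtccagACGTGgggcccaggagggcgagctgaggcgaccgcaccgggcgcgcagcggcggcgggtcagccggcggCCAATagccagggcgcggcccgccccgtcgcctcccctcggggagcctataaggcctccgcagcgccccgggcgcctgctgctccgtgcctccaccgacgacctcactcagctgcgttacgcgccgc
COL4A1, chr13:110307108-110307407, minus strand: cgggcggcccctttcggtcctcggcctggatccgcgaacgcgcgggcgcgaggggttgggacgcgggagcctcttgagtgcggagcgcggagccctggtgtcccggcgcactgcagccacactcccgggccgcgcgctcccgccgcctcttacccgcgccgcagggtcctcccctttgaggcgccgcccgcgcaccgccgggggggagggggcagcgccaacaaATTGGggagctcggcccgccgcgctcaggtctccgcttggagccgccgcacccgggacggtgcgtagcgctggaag
The TNC window held none of these 3 motifs, the THBS1 window held a CCAAT box and a TEAD site, and the PLOD2 window held a CCAAT box and 2 hypoxia response cores. TGATGNAA, the C/EBP-ATF response element bound by ATF4 with its partners, was found in 0 of the 32 members matched, against 3.62% of 35116 windows of all genes. A member counted once if any window of it held the motif, while the shares of all genes are per window, so the units differ. CCAAT was in 12 of 32 (34.6% of all windows), GGAATG in 6 of 32 (14.0%), ACGTG in 8 of 32 (21.4%) and GGGCGG, the SP1 GC box, in 25 of 32 (45.0%). A match is a description of letters, and no match says only that these letters are not in this window. Motifs can overlap each other, and the windows of COL4A1 and COL4A2, whose starts lie 127 bases apart in opposite directions, share 226 bases.

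After 24 h at 3 nM most matrix genes had fallen, and tenascin C was the large exception. Of 38 members, 32 were called lower and 4 higher than in untreated cells by edgeR's quasi-likelihood test (Benjamini-Hochberg adjusted p under 0.05), where 36.0% of all genes tested were called lower and 41.1% higher. The median log2 fold change of the members was -1.20, against 0.05 over all genes, and 23 were at least 2-fold lower, a size reached by 16.4% of all genes. These shares of all genes apply to the counts by role at 3 nM 24 h below as well. Against untreated set 2 alone the median was -1.08, with 32 lower (36.9% of all genes). The 39 members together took 0.585 ± 0.0098% of counts at 3 nM 24 h, 1.16 ± 0.0165% in untreated set 2 and 1.36 ± 0.0608% in untreated set 1 (SD, n = 3 each). Their 14 collagen genes took 0.182 ± 0.0021%, 0.381 ± 0.00225% and 0.456 ± 0.013% of counts in the same groups. In bulk RNA these values cannot tell fewer expressing cells from less RNA per cell.

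**Figure D1:**
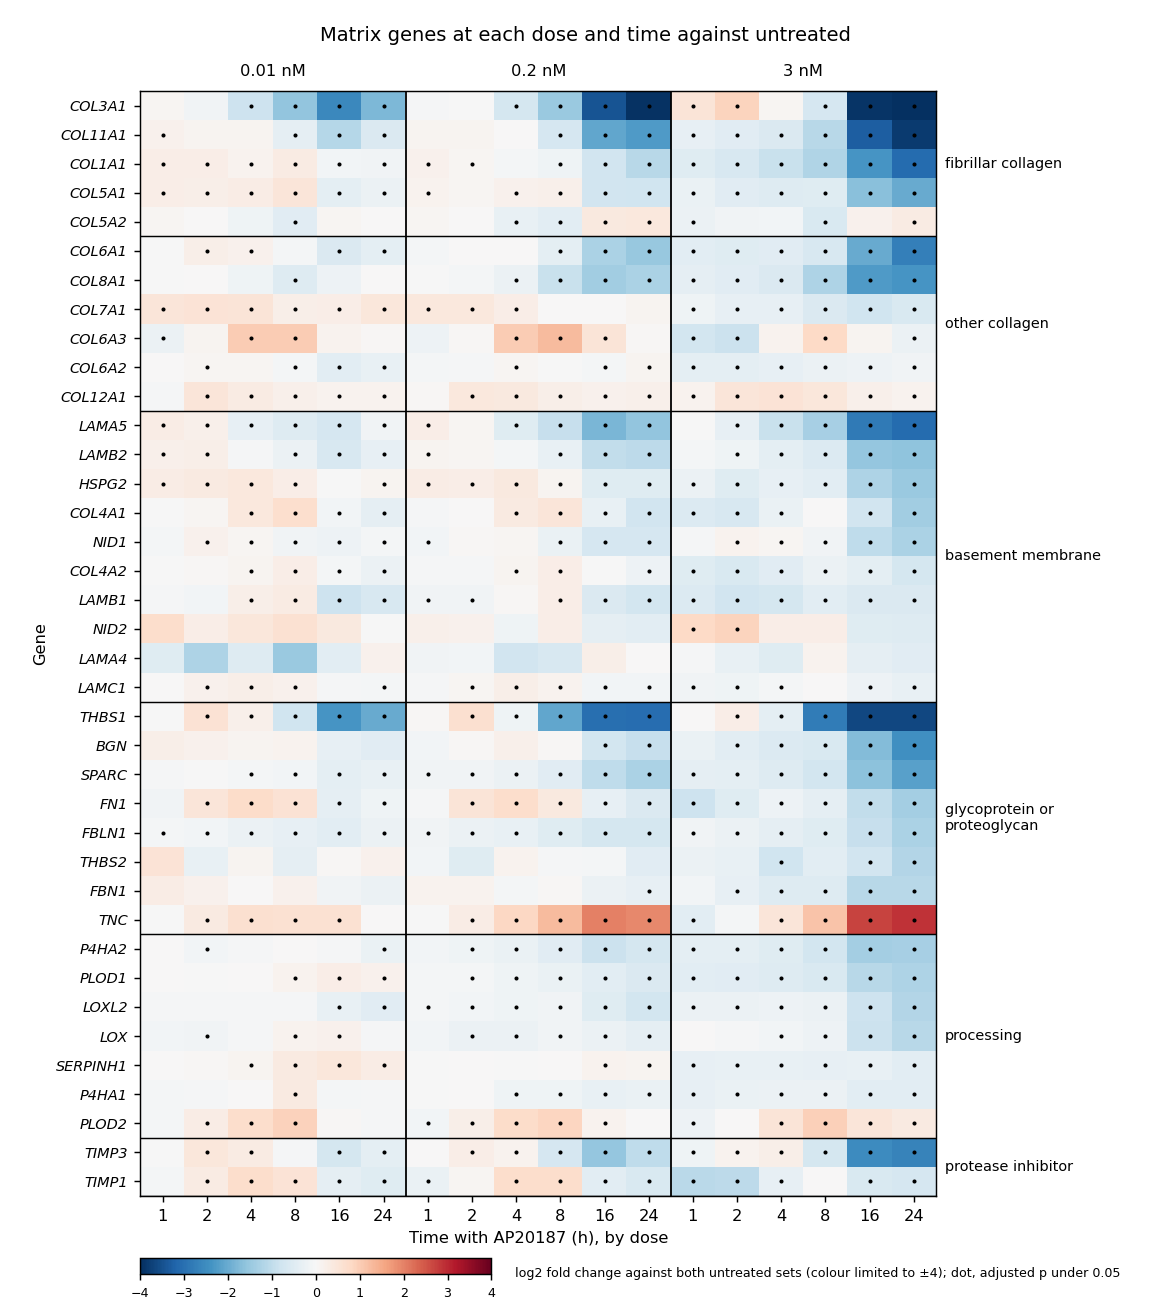
Fitted log2 fold change of the 38 tested members (rows, grouped by role) against the mean of both untreated sets, at 1 to 24 h (columns) for 0.01, 0.2 and 3 nM dimerizer. Colours are limited to 4 on either side of 0, and dots mark an adjusted p under 0.05. At 3 nM most rows were below 0 by 24 h, down to -5.11 for COL3A1, and TNC reached 2.90.

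Among fibrillar collagens, COL3A1 (chromosome 2, 188974320 to 189012746, plus strand, GRCh38), the chain of type III collagen, fell furthest of all members. Its level in CPM, counts scaled to the effective library size, was 0.335, 0.393 and 0.253 at 3 nM 24 h, against 13.5, 13.2 and 14.1 in untreated set 2 and 10.1, 8.57 and 10.7 in untreated set 1. It was 0.506 to 1.06 CPM at 0.2 nM and 2.77 to 3.91 CPM at 0.01 nM. In CPM each dose lay below both untreated sets with no overlap, and the 3 doses did not overlap each other. The rounded counts were few, at 8, 9 and 6 for 3 nM and 10, 6 and 5 for 0.2 nM. In the authors' TPM values the spread at 0.2 nM was wide, with 0.626 ± 0.646, against 1.11 ± 0.381 at 0.01 nM and 0.085 ± 0.0184 at 3 nM (SD, n = 3 each). The log2 fold change at 3 nM 24 h was -5.11 ± 0.17 (SE, adjusted p = 1.9e-34), and -5.35 against set 2.

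COL1A1 (chromosome 17, 50183289 to 50201632, minus strand) was 184.2, 161.6 and 173.7 CPM at 3 nM 24 h, against 1124, 1155 and 1147 in untreated set 2 and 1790, 1935 and 1797 in untreated set 1. The log2 fold change was -3.07 ± 0.0449 (adjusted p = 5e-52) and -2.72 against set 2. At 0.01 nM 24 h COL1A1 stood at 1271 to 1340 CPM, above every set 2 library and below every set 1 library, so its direction there depends on the set: 0.19 against set 2 and -0.50 against set 1 on the log2 scale. COL11A1, a minor fibrillar chain of cartilage, fell by 3.82 on the log2 scale at 3 nM 24 h, and COL5A1, which regulates fibril width, fell by 2.02.

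COL5A2, the partner chain of COL5A1 and the neighbour of COL3A1 on chromosome 2, was the fibrillar gene that was called higher. It read 14.2, 13 and 13.8 CPM at 3 nM 24 h, against 9.24, 11.4 and 9.54 in untreated set 2 and 12.8, 12.5 and 9.9 in untreated set 1. The treated libraries lay above all 6 untreated ones, the nearest being 12.8. The log2 fold change was 0.33 ± 0.0858 (adjusted p = 4.2e-04), and 0.22 against set 1 alone (adjusted p = 0.0816). Of the 5 fibrillar genes tested, 4 were lower and 1 higher, with a median of -3.07.

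The other collagens split between large falls and near-stable levels. COL6A1, the alpha 1 chain of the microfibrillar collagen VI, was 29, 28.3 and 28.7 CPM at 3 nM 24 h, against 179, 164.6 and 162.6 in untreated set 2 and 217.5, 222.3 and 198.9 in untreated set 1. Its log2 fold change was -2.73 ± 0.0458 (adjusted p = 4.1e-49). COL8A1, of the short-chain collagen VIII, fell by 2.36, and COL7A1, of anchoring fibrils, fell by 0.60.

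COL6A2, the alpha 2 chain of collagen VI beside COL6A1 on chromosome 21, barely moved. It was 272.1, 264.5 and 261.6 CPM at 3 nM 24 h, 269.4, 262 and 257.3 in untreated set 2 and 336.2, 332.6 and 329.1 in untreated set 1. The call of lower (-0.15 ± 0.0308, adjusted p = 1.3e-05) came from set 1: against set 2 the difference was 0.02 (adjusted p = 0.66). At 0.2 nM 24 h it was 324.8, 326.4 and 312.2 CPM and called higher (0.12), but -0.05 against set 1. COL6A3, the alpha 3 chain, was likewise -0.25 against both sets and 0.01 against set 2 at 3 nM 24 h.

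COL12A1, which coats fibrils, was 458.8, 474.9 and 469.4 CPM at 3 nM 24 h, against 511.8, 504.9 and 505.7 in untreated set 2 and 334.2, 343 and 394.5 in untreated set 1. The treated libraries fell between the sets. The call of higher (0.14 ± 0.0362, adjusted p = 6.9e-04) becomes -0.12 (adjusted p = 0.00842) against set 2 alone. Of the 6 other collagens, 5 were called lower and 1 higher, with a median of -0.42.

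In the basement membrane, LAMA5, the alpha 5 chain of laminin (chromosome 20, 62307955 to 62367312, minus strand), fell furthest. It was 37, 34.1 and 33.5 CPM at 3 nM 24 h, against 332.1, 356.1 and 341 in untreated set 2 and 246.1, 249.1 and 280.6 in untreated set 1. Its log2 fold change was -3.09 ± 0.0477 (adjusted p = 6.3e-51). LAMC1, the gamma chain shared by most laminins, was 337.9, 327.5 and 330 CPM at 3 nM 24 h, against 399.9, 391.8 and 404.1 in untreated set 2 and 396.8, 423.8 and 428.6 in untreated set 1. Its fall of 0.30 on the log2 scale was small, but the groups did not overlap (adjusted p = 2.6e-16). The beta chains fell by 1.62 (LAMB2) and 0.59 (LAMB1).

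Both collagen IV chains, the network formers of the sheet, were lower: COL4A1 fell by 1.40 and COL4A2 by 0.70 on the log2 scale. HSPG2, which encodes perlecan, fell by 1.49, and NID1, which links laminin to collagen IV, by 1.26. LAMA4 (-0.44 ± 0.434, adjusted p = 0.352; -0.08 against set 2) and NID2 (-0.53 ± 0.305, adjusted p = 0.107) did not pass the test; NID2 passed against set 2 alone (-0.89). In all, 8 of 10 basement membrane members were called lower and 0 higher, with a median of -0.98. By GENCODE exons, 1915 of the 6392 NID2 exon bases are shared with RTRAF and 11.7% of those of HSPG2 with LDLRAD2, both on the opposite strand, and the use of strand in the counting is not given in the sources used here.

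The glycoproteins and proteoglycans held large changes in both directions. THBS1, thrombospondin 1 (chromosome 15, 39581079 to 39599466, plus strand), an activator of latent TGF beta, was 119.1, 103.1 and 109.7 CPM at 3 nM 24 h, against 1345, 1313 and 1297 in untreated set 2 and 1590, 1485 and 1287 in untreated set 1. It was 165.5 to 175.3 CPM at 0.2 nM and 308.5 to 370.8 CPM at 0.01 nM. The lowest dose already lay far below untreated cells (log2 fold change -2.03), and 3 nM reached -3.65 ± 0.058 (adjusted p = 3.1e-50).

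TNC, tenascin C (chromosome 9, 115019578 to 115118257, minus strand), an anti-adhesive glycoprotein of remodelling tissue, went the other way. It was 949.1, 916.2 and 917.1 CPM at 3 nM 24 h, against 110.6, 103.8 and 111.4 in untreated set 2 and 148.8, 138.5 and 137.2 in untreated set 1. At 0.2 nM it was 459 to 500.7 CPM, and at 0.01 nM 116.9 to 132.1 CPM, between the sets. The log2 fold change was 2.90 ± 0.0401 at 3 nM (adjusted p = 3.1e-53), 1.93 at 0.2 nM and 0.03 at 0.01 nM, where it was not called against both sets (-0.16 against set 1, adjusted p = 0.0258).

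SPARC fell by 2.18 on the log2 scale at 3 nM 24 h and BGN, the small proteoglycan biglycan, by 2.44. FN1, fibronectin, fell by 1.36 (0.98 against set 2). FBLN1, fibulin 1, fell by 1.26 and FBN1, the fibrillin of elastic microfibrils, by 1.11. THBS2, thrombospondin 2, had a log2 fold change of -1.16, and -0.74 against set 2 (adjusted p = 0.0246). Of the 8 members of this role, 7 were lower, each at least 2-fold against the mean of the sets, and TNC was higher; the median was -1.31.

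**Figure D2:**
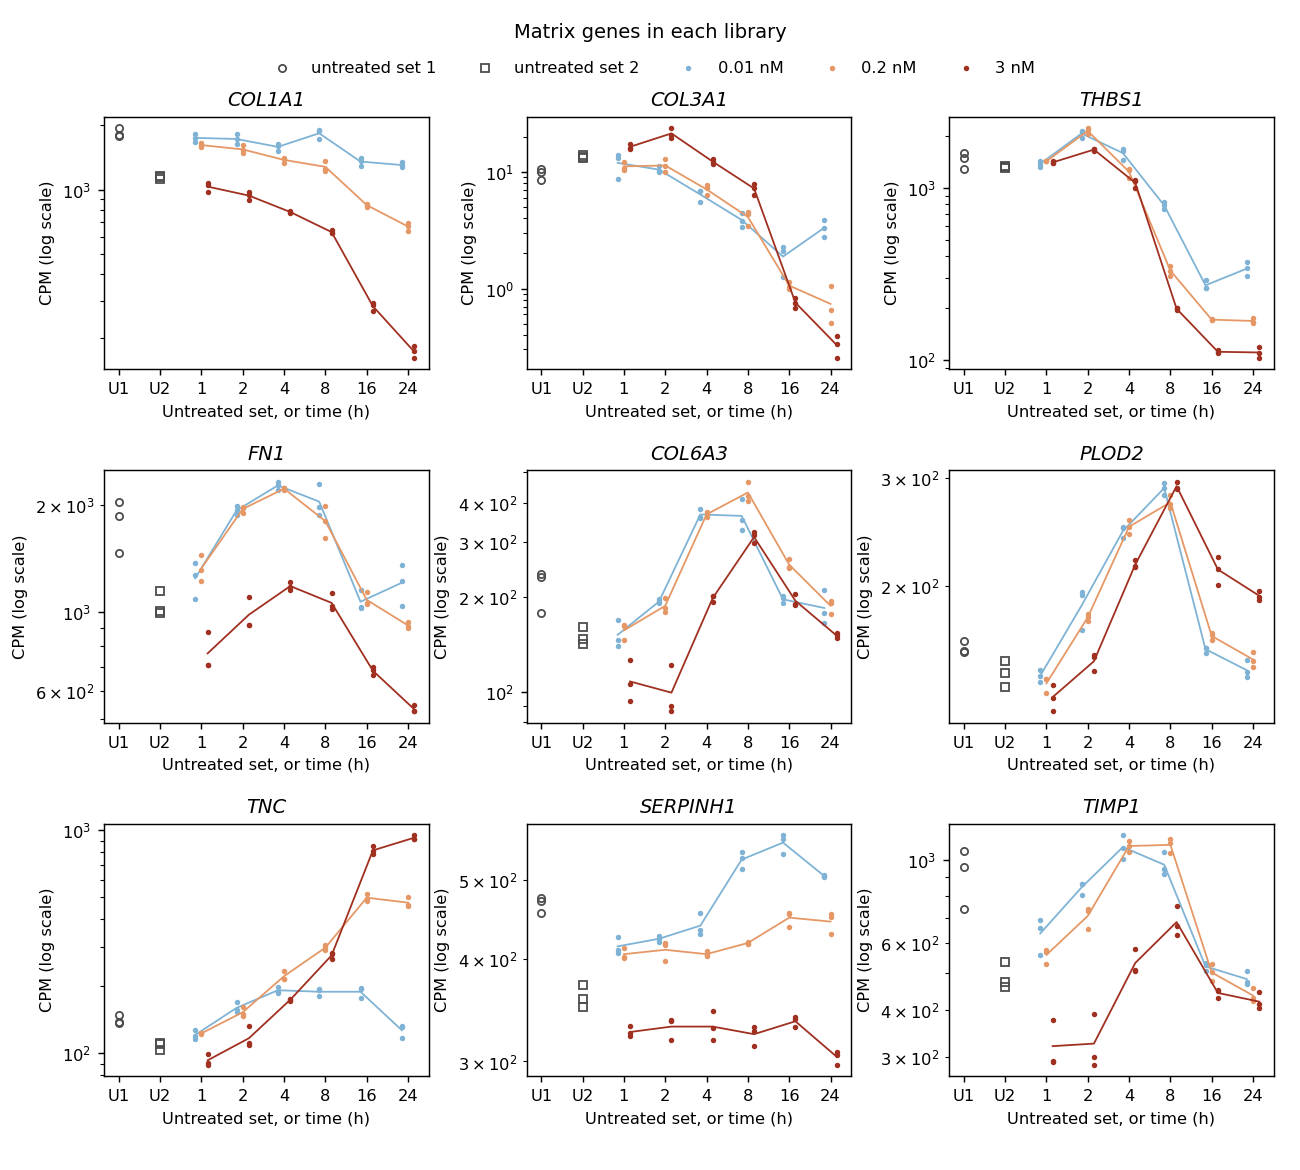
Level of selected members in each library (CPM, log axis, each panel on its own scale) in untreated set 1 (U1), untreated set 2 (U2) and at 1 to 24 h of 0.01, 0.2 and 3 nM; each point is 1 library and the lines join the group means. THBS1 ends at 103.1 to 119.1 CPM at 3 nM and TNC at 916.2 to 949.1 CPM, while FN1, COL6A3 and PLOD2 peak at 4 or 8 h.

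The processing genes ran over a narrower range than the structural ones, from -1.34 to 0.35 at 3 nM 24 h. P4HA2, a catalytic subunit of prolyl 4-hydroxylase, was 30.2, 28.3 and 28.8 CPM at 3 nM 24 h, against 62.9, 65.4 and 65.5 in untreated set 2 and 84.3, 83.7 and 83.3 in untreated set 1, a log2 fold change of -1.34 ± 0.0472. P4HA1, the paralogous subunit, was 51.4, 50.5 and 49.6 CPM, against 55.7, 54.7 and 55.1 in untreated set 2 and 80.4, 88 and 76.6 in untreated set 1. For P4HA1 most of the log2 fold change of -0.41 came from set 1, since it was -0.13 against set 2, although no treated library overlapped set 2.

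The lysyl hydroxylases went in opposite directions. PLOD1, which acts on the helical part of the chain, was 101.3, 100.2 and 92.2 CPM at 3 nM 24 h, against 202.3, 186.7 and 185.8 in untreated set 2 and 283.4, 285.9 and 262.2 in untreated set 1. PLOD2, which hydroxylates the telopeptides that form the stable cross-links of bone, was 192.3, 196.7 and 190.2 CPM at 3 nM 24 h, against 150.9, 144.7 and 136.9 in untreated set 2 and 156.1, 163.2 and 157.2 in untreated set 1. The log2 fold changes were -1.23 ± 0.0334 for PLOD1 (adjusted p = 6.8e-39) and 0.35 ± 0.0321 for PLOD2 (adjusted p = 6.6e-15).

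SERPINH1, the collagen chaperone, was 305.4, 308 and 297.1 CPM at 3 nM 24 h, against 372.4, 357.7 and 349.5 in untreated set 2 and 475.2, 456 and 471.7 in untreated set 1 (log2 fold change -0.43 ± 0.026, and -0.25 against set 2). At 0.2 nM 24 h SERPINH1 was 430.1, 451.4 and 454.7 CPM and called higher (0.12); against set 1 alone it was -0.07. The cross-linking enzyme LOX was 27.6, 29.4 and 29.2 CPM at 3 nM 24 h, against 62.2, 67.6 and 64.1 in untreated set 2 and 58.9, 61.8 and 61.8 in untreated set 1. Its relative LOXL2 was 105.8, 99.2 and 98.3 CPM, against 221.8, 214.3 and 215.3 in untreated set 2 and 231.2, 244.3 and 235 in untreated set 1. LOX fell by 1.12 and LOXL2 by 1.17 on the log2 scale, and neither overlapped an untreated library.

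The inhibitors both fell at 3 nM 24 h. TIMP3, which binds the matrix, was 21, 20.2 and 20.7 CPM, against 128.2, 118.6 and 121.1 in untreated set 2 and 144.7, 138.1 and 139.3 in untreated set 1 (log2 fold change -2.67 ± 0.0451, adjusted p = 5.2e-49). TIMP1 was 444.7, 413.7 and 403.1 CPM, against 535.6, 472.7 and 459.2 in untreated set 2 and 1052, 955.7 and 738.6 in untreated set 1. The TIMP1 value of -0.67 shrinks to -0.22 (adjusted p = 0.0204) against set 2, whose TIMP1 libraries were far below those of set 1.

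Structural and processing genes were set side by side at 24 h. At 3 nM, 24 of 29 structural genes were lower and 3 higher (median -1.26, range -5.11 to 2.90), and 6 of 7 processing genes were lower and 1 higher (median -1.12, range -1.34 to 0.35). Of all genes tested, 36.0% were lower and 41.1% higher. Falls of at least 2-fold were seen for 18 structural and 4 processing genes (16.4% of all genes). At 0.2 nM the medians were -0.68 for structural and -0.36 for processing genes, with 20 of 29 and 5 of 7 lower (31.2% of all genes). At 0.01 nM they were -0.18 and -0.06, with 17 of 29 and 2 of 7 lower (22.2% of all genes, a share close to that of the processing genes). The class counts, and that closeness, depend on the set. Against set 1 alone at 0.01 nM, P4HA1 (-0.34) and PLOD2 (-0.12) were called lower as well, and SERPINH1 was still higher (0.11). BGN and TNC then joined the lower structural genes, and LAMA5 and NID1 left them. At 0.2 nM SERPINH1 turned to lower against set 1 (-0.07). The wider range of the structural class also goes with more genes in it.

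Within a library, the median log2 value of the structural genes less that of the processing genes, each gene centred on its untreated mean, gives the gap between the classes. The gap was -0.19 ± 0.07 at 3 nM 24 h, against 0.047 ± 0.043 in untreated set 2 (SD, n = 3 each). It was -0.275 ± 0.073 at 0.2 nM 24 h and -0.112 ± 0.007 at 0.01 nM 24 h, against -0.035 ± 0.069 in untreated set 1. The 0.01 nM libraries, from -0.118 to -0.104, overlapped the set 1 libraries, from -0.114 to 0.007. At 3 nM the gap was small beside the median of either class, while at 0.01 nM it was larger than the processing median of -0.06. Before 24 h the gap changed sign. It was 0.191 ± 0.077 at 0.01 nM 2 h and 0.242 ± 0.04 at 0.2 nM 4 h, with structural genes above processing genes. By 16 h it was -0.29 ± 0.03 at 0.01 nM, wider than at 24 h, and -0.199 ± 0.085 at 0.2 nM. At 3 nM it was 0.069 ± 0.034 at 1 h and -0.125 ± 0.021 at 4 h. The gap has no test here.

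**Figure D3:**
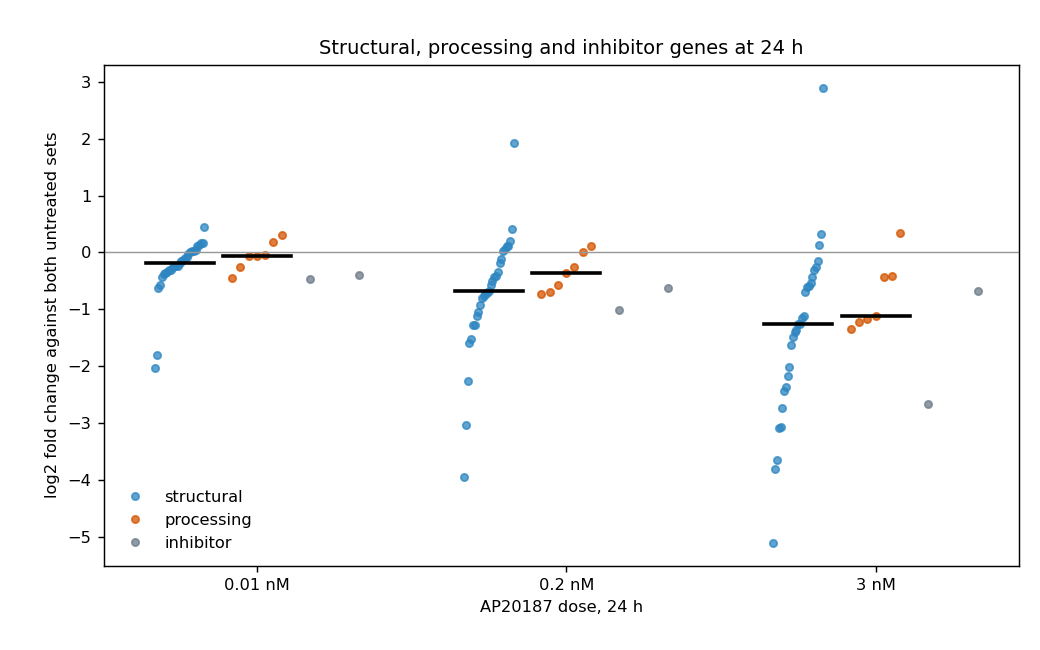
Fitted log2 fold change at 24 h against the mean of both untreated sets for each member of the structural, processing and inhibitor classes, at 0.01, 0.2 and 3 nM; each point is 1 gene and the black lines are the structural and processing medians. At 3 nM the structural median is -1.26 and the processing median -1.12, and the structural genes spread from -5.11 to 2.90.

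Over time the members did not fall together from the start. At 0.01 nM, 17, 19 and 18 members were called higher than untreated at 2, 4 and 8 h (21.5%, 25.9% and 27.8% of all genes tested), and 3, 4 and 11 lower (22.0%, 26.1% and 26.0%). The direction turned by 16 h, when 6 were higher and 19 lower (26.9% and 25.8%), and at 24 h 5 were higher and 21 lower (21.0% and 22.2%). At 1 h, 7 were higher and 2 lower (12.6% and 15.5%). Against set 1 alone the early excess of higher calls largely went: 12 higher and 9 lower at 2 h (20.9% and 21.4%), 14 and 13 at 4 h (24.3% and 24.5%) and 11 and 16 at 8 h (25.6% and 23.5%). At 24 h it was 4 higher and 23 lower (18.9% and 20.2%), and at 1 h 6 higher and 18 lower (12.8% and 15.6%).

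At 0.2 nM, 6 members were higher and 7 lower at 1 h (16.2% and 19.0% of all genes), 10 and 7 at 2 h (22.4% and 22.4%), 14 and 12 at 4 h (30.1% and 29.2%) and 12 and 18 at 8 h (32.8% and 30.8%). Then 6 were higher and 26 lower at 16 h (34.9% and 31.5%), and 5 and 27 at 24 h (34.3% and 31.2%), when 10 were at least 2-fold lower (9.53% of all genes) and the median was -0.60. Against set 1 alone, 3 were higher and 29 lower at 24 h (32.2% and 28.9%), with a median of -0.82. The early counts depended on the set: against set 1 alone, 4 were higher and 18 lower at 1 h (16.4% and 19.3%) and 8 and 16 at 2 h (22.0% and 22.0%).

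At 3 nM the lower calls were frequent from the first hour. They numbered 26 at 1 h (21.0% of all genes), 26 at 2 h (23.1%), 28 at 4 h (31.9%), 28 at 8 h (34.0%) and 31 at 16 h (35.5%), with 3, 6, 5, 4 and 3 members higher (22.6%, 27.4%, 34.9%, 38.5% and 40.6%). The early falls were mostly small: 1 member was at least 2-fold lower at 1 h (0.238% of all genes) and 18 at 16 h (15.4%). Against set 2 alone, 23, 24, 21, 23 and 29 members were lower at these times (14.2%, 19.4%, 31.8%, 34.8% and 36.9%). By limma on the authors' TPM values, as log2(TPM + 1), the lower calls were 14 at 1 h and 17 at 2 h at 3 nM (2.40% and 6.74%) and 0 at both times at 0.2 nM (2.64% and 7.05%); at 24 h of 0.01 nM they were 11 (8.22%). Being lower at every one of the 6 times held for 18 members at 3 nM, 3 at 0.2 nM and 1 at 0.01 nM against both sets (7.17%, 4.28% and 1.57% of all genes), and for 12, 8 and 4 against the set of like depth (3.72%, 5.36% and 2.47%). The lowest value came at 24 h for 25 members at 3 nM, 22 at 0.2 nM and 10 at 0.01 nM.

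A few genes peaked in mid-course and then fell back. COL6A3 at 8 h was 326.6, 409.9 and 352.3 CPM at 0.01 nM, 421.4, 465.6 and 406.2 CPM at 0.2 nM and 314.7, 322.4 and 297.4 CPM at 3 nM, against 161.2, 141.8 and 147.1 CPM in untreated set 2 and 237.9, 231.5 and 177.8 CPM in untreated set 1. Every 8 h library was above every untreated one. By 24 h the 3 nM libraries were at 153.5, 148.2 and 151.3 CPM, within the range of set 2.

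PLOD2 did the same at all doses, at 281.8 to 295 CPM at 0.01 nM, 268.5 to 281.8 CPM at 0.2 nM and 288 to 295.7 CPM at 3 nM after 8 h, and above 163.2 CPM, its highest untreated library, in each. Its log2 fold changes at 8 h were 0.93, 0.86 and 0.94 over the rising doses. FN1 had log2 fold changes of 0.73, 0.70 and -0.21 at 4 h over the rising doses against both sets, but 0.34, 0.31 and 0.17 against the set of like depth, where the value at 3 nM was not called (adjusted p = 0.063). Its 0.01 nM libraries at 24 h were 1358, 1039 and 1225 CPM, overlapping untreated set 2 (1148, 1006 and 990.6) and below untreated set 1 (2036, 1865 and 1464). COL4A1 had log2 fold changes of 0.66, 0.48 and 0.01 at 8 h over 0.01, 0.2 and 3 nM, and 0.46, 0.28 and 0.21 against the set of like depth, each called higher. For TIMP1 the 8 h values were 0.54, 0.71 and 0.03, and 0.08, 0.26 and 0.48 against the set of like depth, so that the order of the doses for TIMP1 turned with the set.

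THBS1 turned within hours. It was called higher at 2 h at every dose (log2 fold change 0.58, 0.63 and 0.26), and lower at 8 h at every dose (-0.81, -2.07 and -2.80). At 8 h its libraries read 750.2, 828.6 and 792.5 CPM at 0.01 nM, 308, 352.1 and 331.4 CPM at 0.2 nM and 201.6, 201.1 and 194.6 CPM at 3 nM, in order of dose with no overlap. TNC had 8 h log2 fold changes of 0.61, 1.26 and 1.15, and 16 h values of 0.61, 2.01 and 2.71 over the 3 doses. Against the set of like depth the 8 h values of TNC were 0.42, 1.07 and 1.34, and with each dose taken against its own set 3 nM was higher than 0.2 nM at 8 h by 0.27 (adjusted p = 0.00479), while the direct difference was -0.11 (adjusted p = 0.0609). COL3A1 also turned at 3 nM: at 2 h it was 19.7, 20.9 and 23.7 CPM, above every untreated library, the highest of which was 14.1 CPM (log2 fold change 0.89, and 0.65 against set 2). At 1 and 2 h of 3 nM, replicate 1 stood above replicates 2 and 3 for COL6A3, TIMP1, FN1 and LAMB1, so early values of these genes have a wider spread.

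Within a dose, 24 h against 4 h shares no untreated library. The drug and the time in culture cannot be told apart in this comparison either. At 0.01 nM 3 members were higher and 24 lower at 24 h (21.9% and 23.2% of all genes), at 0.2 nM 3 and 27 (25.6% and 26.2%) and at 3 nM 3 and 32 (34.5% and 33.4%). In all, 21 of 38 members were lower at 24 h at each of the 3 doses and 0 were higher at each (10.6% and 9.17% of all genes). Over the rising doses the log2 changes were -0.96, -3.26 and -5.20 for COL3A1, -0.28, -1.04 and -2.18 for COL1A1, and -2.23, -2.87 and -3.27 for THBS1. TNC differed by dose: -0.60 at 0.01 nM, 1.10 at 0.2 nM and 2.42 at 3 nM. SERPINH1 was 0.20, 0.13 and -0.13, the narrowest span of these.

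The change between 4 and 24 h was larger at 3 nM than at 0.2 nM for many members. Tested as an interaction, 7 members had a higher and 20 a lower value at 3 nM, where 19.5% of all genes were higher and 16.7% lower. COL3A1 had the most negative difference of the 2 changes (-1.93), then TIMP3 (-1.74) and COL1A1 (-1.14). TNC had the most positive (1.32), and TIMP1 (0.98) and LAMB1 (0.90) followed.

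Doses were also compared directly. At 1 h, 0.2 nM against 0.01 nM gave 0 members higher and 0 lower by edgeR (0.344% and 0.416% of all genes), while DESeq2 called 1 lower. At 24 h the same step gave 3 higher and 23 lower (26.9% and 24.6%), and 3 nM against 0.2 nM gave 2 higher and 29 lower (30.6% and 25.5%). That second step crosses the depth split; with each dose taken against its own set it gave 5 higher and 25 lower (25.6% and 22.8%). At 1 h it gave 1 higher and 26 lower (15.9% and 11.4%), against 3 higher and 5 lower with each dose taken against its own set (6.26% and 6.67%). At 24 h, 23 members were lower at both steps (13.9% of all genes). With the second step taken against own sets 21 were (2157 of all 18040 genes tested), among them COL3A1, COL1A1, COL11A1, SPARC, THBS1, LAMA5 and 5 of 7 processing genes, while FN1 and P4HA1 were not.

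Lower calls at all 3 doses at 24 h were made for 20 of 38 members against both sets and for 20 against the set of like depth (12.8% and 11.8% of all genes). Both counts include COL3A1, COL1A1, COL5A1, COL11A1, COL6A1, both collagen IV chains, SPARC, THBS1, FN1, P4HA2, LOXL2 and both inhibitors. Higher at all 3 doses was COL12A1 against both sets, and 0 members against the set of like depth (11.6% and 9.07% of all genes).

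Some partner chains did not keep their ratio and others did, a comparison chosen after the values were seen and given with no test. The log2 ratio of COL6A1 to COL6A2 in CPM was -0.71 at 0.01 nM 24 h, -2.28 at 0.2 nM and -3.21 at 3 nM, while it was -0.64 in untreated set 2 and -0.65 in untreated set 1. The ratio of COL4A1 to COL4A2, transcribed from a shared region of chromosome 13, was -1.78 ± 0.079, -2.22 ± 0.052 and -2.35 ± 0.026 at 24 h over the rising doses, against -1.64 ± 0.029 in set 2 and -1.65 ± 0.026 in set 1 (SD, n = 3 each). At 8 h it had been higher than in untreated cells, at -1.25, -1.41 and -1.41. For COL5A1 to COL5A2 it was 5.27, 4.32 and 3.18 at 24 h, against 5.55 and 5.52 in the same sets. These 3 ratios were nearly equal in both untreated sets. LAMA5 to LAMC1 was -0.50, -1.92 and -3.25 at 24 h, against -0.22 in set 2 and -0.69 in set 1. COL6A3 to COL6A2 was -0.37 ± 0.162, -0.77 ± 0.038 and -0.82 ± 0.024 at 24 h. It was -0.81 ± 0.073 in set 2 and -0.64 ± 0.218 in set 1, so at 3 nM this pair kept its ratio. The COL6A1 to COL6A2 libraries at 0.01 nM 24 h overlapped those of both sets. LAMB2 to LAMB1 was 0.66, 0.04 and -0.67 at 24 h, against 0.53 in set 2 and 0.19 in set 1.

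**Figure D4:**
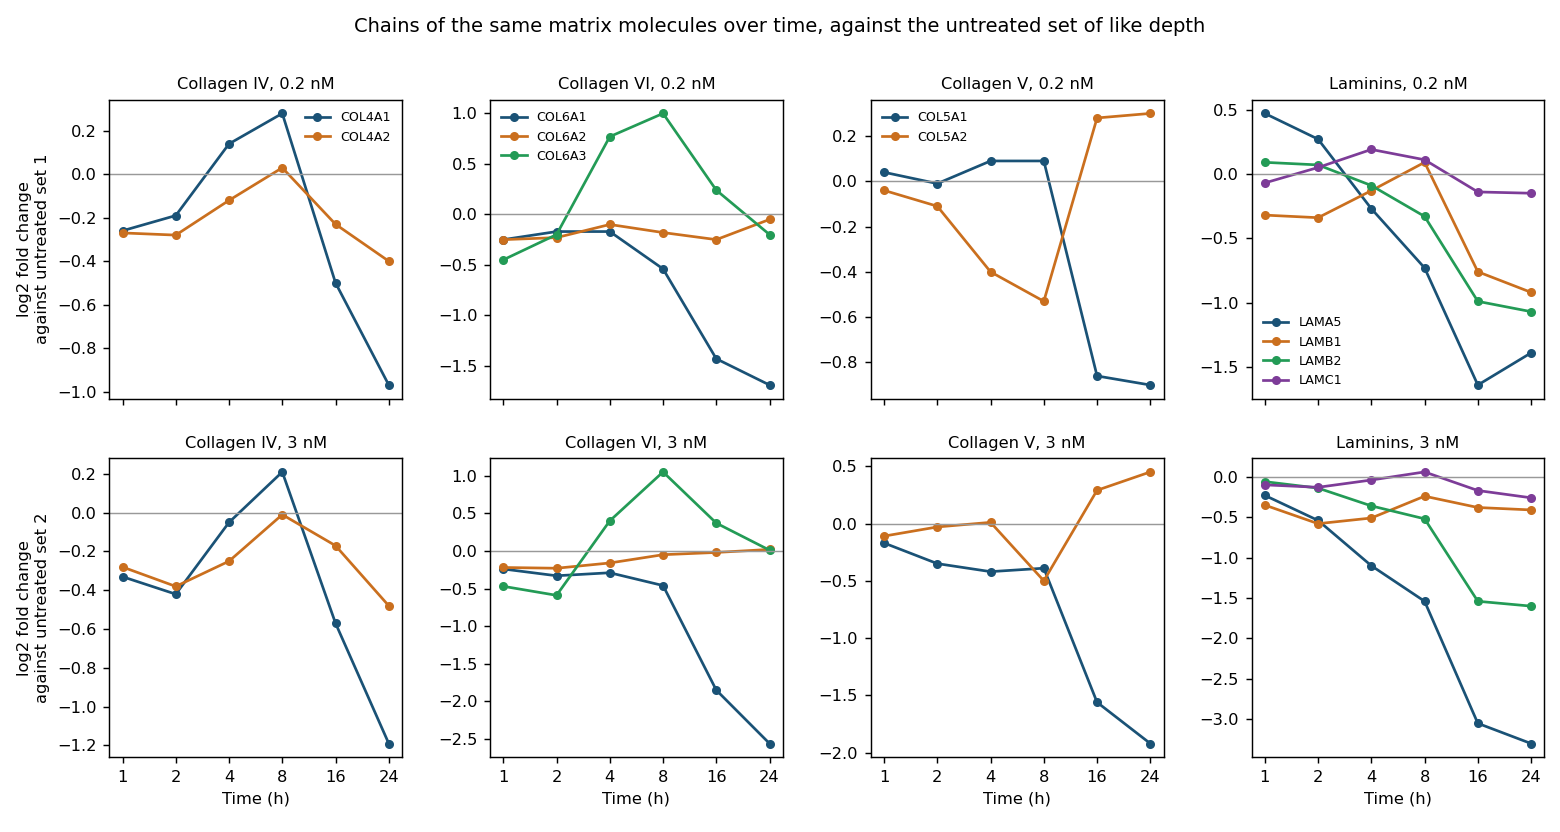
Fitted log2 fold change of single chains of collagens IV, VI and V and of laminins over 1 to 24 h, at 0.2 nM against untreated set 1 (top) and at 3 nM against untreated set 2 (bottom); each panel has its own vertical scale. COL4A1 and COL6A1 end below COL4A2 and COL6A2 at 24 h, with COL6A1 at -2.56 and COL6A2 at 0.02 at 3 nM.

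Other genes of the pathway, from lists by role, were counted at 3 nM 24 h in the same test, where 36.0% of all genes were lower and 41.1% higher. Of 18 other collagen genes tested, 15 were lower and 2 higher (median -1.71): COL26A1 was 0.113 CPM, against 2.79 in untreated set 2 and 1.34 in set 1 (-3.99), and COL27A1 71.1 CPM, against 31.3 and 29.3 in the same sets (1.23). Of 34 other matrix glycoproteins and proteoglycans, 29 were lower and 2 higher (median -1.47), from HAPLN1, a link protein of hyaluronan (-4.93), to ECM2 (3.21, and 2.6 against set 2). ECM2 was low throughout, at 0.778 CPM, against 0.119 in set 2 and 0.0465 in set 1. Of 23 other processing genes, 14 were lower and 7 higher (median -0.40), from LOXL4, a lysyl oxidase (-3.15), to TMEM38B, an endoplasmic reticulum cation channel (1.19). The other basement membrane genes were close to those shares, with 4 lower and 5 higher of 10 (median 0.24), from FREM2 (-1.60) to FRAS1 (1.15).

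Of 23 matrix proteases and other inhibitors, 16 were lower and 4 higher (median -1.34), from the aggrecanase ADAMTS5 (-4.31) to the stromelysin MMP3 (5.24, and 4.64 against set 2). ADAMTS5 was low throughout, at 0.0992 CPM at 3 nM 24 h, against 2.29 in untreated set 2 and 2.01 in set 1. MMP3 was 27.1 ± 1.91 CPM at 3 nM 24 h, against 1.07 ± 0.214 in untreated set 2 and 0.451 ± 0.274 in set 1 (SD, n = 3 each). Of 22 integrins and collagen receptors, 18 were lower and 3 higher (median -0.78), from ITGB8, an integrin beta chain that activates TGF beta (-5.10), to DDR2, a receptor for fibrillar collagen (2.27). DDR2 was 119 ± 2.77 CPM, against 24.3 ± 1.4 in set 2 and 25.1 ± 1.81 in set 1. Of 19 TGF beta pathway genes, 14 were lower and 4 higher (median -0.75), from SMAD6, an inhibitory SMAD (-3.05), to TGIF1 (0.43, and 0.72 against set 2). Of 10 bone lineage and mesenchymal markers tested, 7 were lower and 2 higher (median -1.48), from S100A4 (-4.03) to ALPL (1.23). Their summed level was 2310 to 3240 TPM over the 0.01 nM libraries of all times and 1640 to 3160 TPM over those of 0.2 nM. It was 1160 to 2900 TPM over those of 3 nM and 2970 to 3040 TPM in the untreated libraries. Most of this sum was VIM, with a median of 2300 TPM over all libraries, and S100A4 came next with 47.4 TPM. Epithelial markers were lower for 6 and higher for 1 of 8 (median -0.95), from KRT14 (-5.62) to ESRP1 (6.18). KRT14 was 0.0863 CPM at 3 nM 24 h, against 4.1 in set 2 and 5.23 in set 1. ESRP1 was 5.8 CPM, against 0.0533 in set 2 and 0.0891 in set 1, so each rests on a group with very few counts. The sum of the epithelial markers was 658 to 1210 TPM over the 3 nM libraries and 767 to 998 TPM in the untreated ones. It was mostly KRT18 and KRT8, with medians of 645 and 232 TPM over all libraries. Of 5 endothelial markers tested 2 were lower and 2 higher, and their sum was 4.05 to 6.57 TPM over the 3 nM libraries and 3.10 to 6.05 TPM in the untreated ones. CD68, a macrophage marker, was 8.59 ± 0.509 CPM at 3 nM 24 h, against 0.978 ± 0.3 in set 2 and 1.46 ± 0.599 in set 1 (SD, n = 3 each), a log2 fold change of 2.83. The part of these shifts in the members' values was not tested.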

How the data were processed

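RNA was read as bulk RNA-seq libraries, made with a strand-marking kit per the labels' protocols. Per the submitters' processing notes, Salmon 0.9.1, FastQC 0.11.5 and the build GRCh38 were used; the annotation release is not given in the sources used here. The authors deposited estimated counts per gene, of which 54.2% of the non-zero values are whole within 1e-06, and TPM values per gene, relative to length and library. Estimated counts were rounded to whole numbers. edgeR 4.0.16 in R 4.3.3 fitted 20 group means over 60 libraries (TMM factors, filterByExpr, 18040 genes, 40 residual degrees of freedom) and gave 35 contrasts by the quasi-likelihood test. P-values were adjusted by Benjamini-Hochberg within a contrast over all genes tested, and called means an adjusted p under 0.05. SE is the fold change divided by the square root of F. CPM used TMM-scaled library sizes; class medians per library used log2(CPM + 0.5). The depth is a total of 5598612 to 28436165 counts a library. The procedure was tested on simulated data. Gene positions are from GENCODE. The members, lists, roles and tests were chosen with earlier results of these data known. Per-library values are given for the member of each role with the most negative and the most positive fitted change at 3 nM 24 h, every processing member, members called in opposite directions at 3 and 0.2 nM 24 h, and others chosen after their values were seen (COL1A1, FN1, COL6A3 and the chain ratios). From each list of other pathway genes the called genes with the most negative and most positive change were named. Alternatives were other normalization, DESeq2 1.42.0, no filter, each untreated set alone, each dose against its own set, limma 3.58.1 on log2(TPM + 1) and log2(TPM + 0.1), a replicate block and leaving out each library. The set of like depth was paired with a dose by sequencing depth, not by the labels. The result of 1 marker list is not reported here.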

Additional observations from a re-analysis of the deposited data

Results flagged for a closer look

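A difference between the 3 nM and 0.2 nM doses in the change from 4 to 24 h was tested for each member, as an interaction in edgeR's fit (adjusted p under 0.05 over all genes tested). It was passed by 27 of 38 members, where 19.5% of all genes were higher and 16.7% lower. The values below are the log2 change at 3 nM less that at 0.2 nM, so no untreated library enters them. The 3 nM and 0.2 nM libraries still lie on opposite sides of the depth split. Among collagens the difference was -1.93 for COL3A1, -1.14 for COL1A1, -0.95 for COL11A1, -0.75 for COL8A1, -0.75 for COL6A1, -0.52 for COL5A1 and -0.22 for COL12A1. COL6A2 and COL6A3 went the other way, with 0.13 and 0.57. In the basement membrane it was -1.08 for LAMA5, -0.61 for NID1, -0.28 for HSPG2 and -0.26 for LAMB2, and 0.12 for LAMC1 and 0.90 for LAMB1.

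For glycoproteins it was -0.63 for SPARC, -0.48 for FBLN1 and -0.40 for THBS1, and 1.32 for TNC. For processing genes it was -0.91 for LOX, -0.43 for P4HA2, -0.41 for LOXL2, -0.31 for PLOD1, -0.26 for SERPINH1 and 0.55 for PLOD2. The inhibitors split, at -1.74 for TIMP3 and 0.98 for TIMP1. COL6A3, PLOD2, TIMP1 and LAMC1 were lower at 24 h than at 4 h at both doses, so their positive difference is a smaller fall at 3 nM; for COL6A3 the 2 changes were -0.40 at 3 nM and -0.97 at 0.2 nM, and for TIMP1 -0.34 and -1.32.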

How the results depend on the processing

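The count of members lower at 3 nM 24 h kept its size in each alternative run: 32 against both sets, 32 against set 2 alone (30 of them in both), 30 or 31 by limma on TPM, and 32 to 33 with 1 library left out. Counts at 1 to 4 h depended on the untreated set and on the scale, and the cause was not tested. The counts in this section only show how far a count moved with the setting. The share of all genes called in the same run is not given beside them, so they do not compare the members with other genes. Leaving out 1 library moved 11 of 324 counts by over 1.5 times and turned the 24 h direction of 0 called genes. Those counts were of members lower at 0.01 nM 1 h (0 to 3, all libraries 2; moved by untreated set 1 replicate 2, untreated set 2 replicates 1 and 2 and each treated replicate), 0.01 nM 2 h (0 to 5, all 3; untreated set 1 replicate 3 and treated replicates 1 and 2) and 0.2 nM 1 h (3 to 8, all 7; treated replicate 3), and of members higher at 0.01 nM 24 h (3 to 5, all 5; treated replicate 3).

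Against set 1 alone, members higher were 11 at 0.01 nM 8 h and 3 at 0.2 nM 16 h and 24 h each; members lower were 18, 9 and 13 at 1, 2 and 4 h of 0.01 nM and 18 and 16 at 1 and 2 h of 0.2 nM. Against set 2 alone, members higher were 20, 11 and 8 at 1, 16 and 24 h of 0.01 nM, 14 and 22 at 1 and 2 h of 0.2 nM and 1 at 3 nM 1 h; members lower were 4 and 5 at 2 and 4 h of 0.2 nM. The 24 h medians over 0.01, 0.2 and 3 nM were -0.28, -0.86 and -1.47 (structural) and -0.12, -0.54 and -1.08 (processing) against set 1. They were -0.13, -0.55 and -1.19 (structural), and 0.02 at 0.01 nM and -0.97 at 3 nM (processing), against set 2.

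Called genes whose 24 h log2 fold change turned were COL6A2 (-0.05 at 0.2 nM), LAMA5 (0.08 at 0.01 nM), PLOD1 (-0.08 at 0.01 nM) and SERPINH1 (-0.07 at 0.2 nM) against set 1. Against set 2 they were COL12A1 (-0.12, -0.04 and -0.12 over the doses), COL1A1 (0.19 at 0.01 nM), FN1 (0.20 at 0.01 nM), COL4A2 (0.03 at 0.2 nM), P4HA1 (0.02 at 0.2 nM), COL6A2 (0.02 at 3 nM) and COL6A3 (0.01 at 3 nM).

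With limma on log2(TPM + 1), the median of all genes was 0.06 to 0.18 across comparisons with untreated cells, and 0.09 to 0.23 on log2(TPM + 0.1). With either pseudocount, members higher were 12 and 8 at 1 and 24 h of 0.01 nM, 22 at 0.2 nM 2 h and 2 at 3 nM 24 h; at 0.2 nM 1 h they were 20 with 1 and 19 with 0.1. Members lower were 0, 1, 6 and 11 at 1, 2, 8 and 24 h of 0.01 nM, 0, 0 and 4 at 1, 2 and 4 h of 0.2 nM, and 14 and 17 at 1 and 2 h of 3 nM. With 0.1 they were 11 at 0.2 nM 8 h and 18 at 3 nM 8 h. The 24 h medians with 1 were -0.09, -0.48 and -1.08 (structural) and 0.11, -0.10 and -0.79 (processing).

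RLE factors gave 12 lower at 0.2 nM 1 h, and no filter gave 5 lower at 0.01 nM 1 h and 5 higher at 3 nM 16 h. DESeq2 gave 1 lower at 1 h of 0.2 against 0.01 nM and moved none of the other 49 counts it gave by over 1.5 times. With each dose taken against its own set, 3 against 0.2 nM gave 3 higher and 5 lower at 1 h, and 5 higher at 24 h. The replicate numbers did not pair the samples: of 190 pairs of groups, 4 had all 3 correlations of same-numbered deviations over 0.1 (570 correlations, median 0.017). A replicate block moved 0 of 52 counts by over 1.5 times; it gave 32 members lower at 3 nM 24 h. Depth limits the members of few counts: COL1A2 could not be tested, and the SE at 3 nM 24 h was 0.434 for LAMA4 and 0.279 for THBS2.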
